A study of Rattus norvegicus with 24 samples.

Results

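The 10 genes described here belong to the disease-associated microglia programme and were measured in rat brain after traumatic brain injury (TBI). They are the receptors and adaptor Trem2, Tyrobp, Clec7a and Axl, the membrane proteins Gpnmb and Cd9, the secreted proteins Spp1, Lgals3 and Igf1, and the protease inhibitor Cst7. The members were found by gene name among 26641 named loci. Each of the 10 names had exactly 1 locus, so the mean level over the libraries, which was to decide between loci of one name, decided nothing. The genes were proposed with the TBI effects of these data already in view, so that their number of rises is a description of the list and not independent support for it. All animals were adult male Sprague-Dawley rats. The TBI rats received a lateral fluid-percussion injury, a fluid pressure pulse onto the exposed dura of one hemisphere, and the sham-operated rats received anaesthesia and the same surgery without the impact. The TBI rats were chosen by magnetic resonance imaging for an enhanced T2 signal around the lesion, so they stand for injury with chronic perilesional inflammation and not for every injured rat. Messenger RNA was sequenced 3 months after surgery in 6 TBI and 6 sham rats, each of which gave 1 library of perilesional cortex and 1 of ipsilateral thalamus.

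Microglia are the resident macrophages of the brain. Around plaques, dying neurons and degenerating axons they lower part of their homeostatic genes and raise a shared set of genes for lipid sensing, phagocytosis, lysosomes and secreted matrix proteins. Trem2 binds lipids and lipoproteins and signals through its adaptor Tyrobp (DAP12) to the kinase Syk, and part of the programme depends on this receptor. Clec7a (dectin-1) is a glucan receptor that also signals through Syk. After cortical injury the thalamus loses its projection neurons and their axons over weeks to months, and microglial activation there is long lasting. Several members are not restricted to microglia: Axl and Cd9 are also made by astrocytes, endothelial cells or oligodendrocytes, Spp1 and Igf1 also by some neurons, and all of them by other macrophages.

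Levels are normalized counts, in which the fragments of a locus were divided by the size factor of the library. No length correction was made, so levels were compared between groups and never between genes. Libraries held 30568926 to 54608921 fragments. A TBI effect is the difference of mean log2(normalized count + 1) between TBI and sham rats, tested with limma over all loci with a gene name and a mean of at least 10, and a gene was called at a Benjamini-Hochberg adjusted p under 0.05. Of the 10 members 9 passed the filter on low values, and Cst7 did not. As the deposited files list them (annotation Rnor 5.0, first base counted as in the files), Clec7a lies at chr4:211859642-211877596, Gpnmb at chr4:143381294-143404106 and Cd9 at chr4:224989641-225022649. Tyrobp lies at chr1:90031116-90034980 and Axl at chr1:83810653-83840983. Trem2 lies at chr9:13532902-13539462, Spp1 at chr14:6653092-6658953, Lgals3 at chr15:28094061-28106276, Igf1 at chr7:28527975-28607753 and Cst7 at chr3:152726307-152735075. In tissue homogenate, more cells of a type and more RNA per cell cannot be told apart. General microglial and macrophage RNA was followed with 7 genes (Csf1r, Spi1, Irf8, Itgam, Aif1, Ptprc and Laptm5, the reference genes below). Which cells made the RNA of the members was not tested. All 7 reference genes passed the filter. Their mean log2 level was 9.12 ± 0.09 (SD, n = 6) in sham cortex, 9.78 ± 0.15 in TBI cortex, 9.36 ± 0.17 in sham thalamus and 10.57 ± 0.15 in TBI thalamus.

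RefSeq promoter sequences (rat build GRCr8, 250 bases before to 50 bases after the start site) were held for 8 of the 10 members, all but Tyrobp and Lgals3. Only the first promoter listed for each member was used, so other start sites were not covered, while shares are over all promoters listed. These 8 sequences were searched on both strands for 6 short motifs. The core GAGGAA of PU.1 and other ETS factors, which set up macrophage genes, occurred in 4 of the 8 (Gpnmb, Trem2, Axl and Cd9) and in 27.6% of all 33469 promoters. The letters TGANTCA, a loose form of the AP-1 site in which N is any base, are called AP-1 below. They occurred in 3 of the 8 and in 7.33% of all promoters. The match read TGAGTCA in Gpnmb, TGAATCA in Trem2 and TGATTCA in Cst7, so the middle base differed in each. The M-box TCACATG, a form of the site read by MITF and TFE factors of melanocytes and lysosome-rich macrophages, occurred only in Gpnmb among the 8 and in 3.89% of all promoters. The palindrome CACGTG and the RUNX motif TGTGGTT had no match in the 8 and were in 6.42% and 5.57% of all promoters, and TATAAA occurred in Spp1 alone and in 14.2% of all. The searched motifs do not overlap one another at the printed sites. Clec7a and Igf1 had no match to any of the 6, which says only that these letters are absent from this window. Gpnmb and Trem2 are shown because they alone held more than 1 of the motifs. Each line is 1 window of 30 bases in the direction of the gene, with the motif in capitals.
Gpnmb, ETS core, chr4:79340935-79340964, plus strand: aaagatggtggaGAGGAAgagaaaaaggag
Gpnmb, AP-1, chr4:79341030-79341059, plus strand: ccaggagcaagTGAGTCAtgagcacgagtt
Gpnmb, M-box, chr4:79341094-79341123, plus strand: tgcttaaaacaTCACATGatctccctctgg
Trem2, ETS core, chr9:20151791-20151820, minus strand: agcctcctttccTTCCTCcctcgtgccctt
Trem2, AP-1, chr9:20151764-20151793, minus strand: cttctcctcctTGAATCAcagcgcccaccc

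Counted from the start site, the Gpnmb motifs began at -181, -87 and -23 and the Trem2 motifs at -29 and -3. A match in letters is a description of the sequence and not evidence of a bound factor.

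All 9 members tested rose after TBI in the perilesional cortex and all 9 rose in the ipsilateral thalamus. Among all loci tested, 14.3% were called higher and 14.9% lower in the cortex, and 14.5% higher and 20.9% lower in the thalamus (2259 loci higher and 3257 lower, or 2796 and 2357 with TMM scaling). Of named loci tested in both regions 8.28% were higher in both. In the cortex the 6 TBI values lay above all 6 sham values for 7 of the 9 members, against 7.02% of all loci, with Axl and Igf1 overlapping. In the thalamus this held for 8 of the 9, against 7.46% of all loci, with Igf1 overlapping. The effects ran over a wide range within the list. Clec7a, Gpnmb, Spp1 and Lgals3 had log2 effects above 2 in both regions, which 0.413% of loci reached in the cortex and 0.328% in the thalamus, while the effects of Axl, Cd9 and Igf1 stayed under 1 in both.

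**Figure D1:**
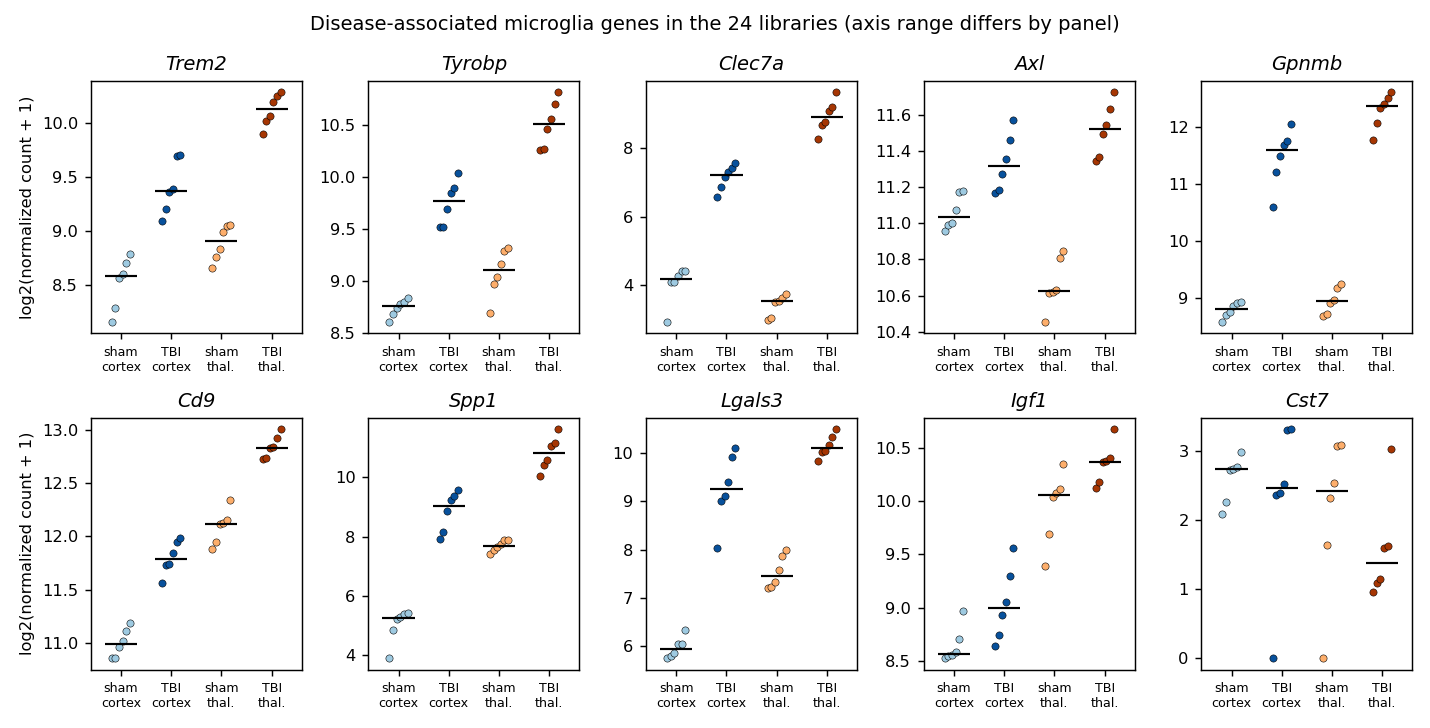
Level of each of the 10 members as log2(normalized count + 1) in the 24 libraries, 1 point per rat and a bar at the median of each group of 6, with an axis range of its own in each panel. Both TBI groups sit above both sham groups for Trem2, Tyrobp, Clec7a, Gpnmb, Spp1 and Lgals3. Cd9 and Igf1 follow the region as well as the injury, and Cst7 lies at a few fragments per library throughout.

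The receptors come first. Trem2 ranged from 285 to 440.0 normalized counts in sham cortex (median 382) and from 544 to 832 in TBI cortex (median 661). In the thalamus its range was 401 to 529.7 in sham rats (median 480.4) and 952 to 1243 in TBI rats (median 1119). Neither region showed overlap between injured and sham rats, and even the lowest TBI cortex value lay above the highest sham thalamus value. The log2 effect of Trem2 was 0.89 (SE 0.12, adjusted p = 0.000164) in the cortex and 1.23 (SE 0.09, adjusted p = 3.08e-07) in the thalamus. Tyrobp, its signalling adaptor, ranged from 389 to 455 in sham cortex (median 431) and from 731 to 1046 in TBI cortex (median 872). Thalamic Tyrobp ranged from 412 to 635 in sham rats (median 548) and from 1223 to 1794 in TBI rats (median 1454). Every TBI value of Tyrobp exceeded every sham value of either region. Its log2 effect was 1.01 (SE 0.09, adjusted p = 3.23e-06) in the cortex and 1.43 (SE 0.12, adjusted p = 9.68e-07) in the thalamus.

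Clec7a was at a low level in sham rats. It ranged from 6.70 to 20.6 normalized counts in sham cortex (median 17.2), which were 6 to 24 fragments, and from 6.92 to 12.5 in sham thalamus (median 10.6), which were 7 to 12 fragments. TBI rats held 94.0 to 187 in the cortex (median 149) and 308 to 783 in the thalamus (median 482). The TBI and sham ranges were far apart in both regions, and the 2 TBI groups did not overlap with each other either. The sham thalamus mean of 9.88 lay just under the minimum mean of 10, so in that region Clec7a passed the filter through the TBI rats. Its place in the thalamic fit, and so its call and rank there, depend on the rise itself. The log2 effect of Clec7a was 3.10 (SE 0.24, adjusted p = 2.02e-06) in the cortex and 5.51 (SE 0.21, adjusted p = 3.54e-09) in the thalamus. It ranked 19 of 15493 loci by effect in the cortex and 1 of 15564 in the thalamus. Axl, a receptor tyrosine kinase that recognises Gas6 bound to phosphatidylserine on dying cells and debris, had smaller effects. Its sham cortex range of 1988 to 2320 (median 2099) overlapped the TBI cortex range of 2298 to 3039 (median 2551), with 5 of the 6 TBI rats above all sham rats. In the thalamus the ranges were 1404 to 1838 in sham rats (median 1578) and 2604 to 3382 in TBI rats (median 2934), with no overlap. Axl rose by a log2 effect of 0.27 (SE 0.07, adjusted p = 0.00965) in the cortex and 0.86 (SE 0.08, adjusted p = 2.32e-06) in the thalamus.

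Gpnmb, a glycoprotein of late endosomes, lysosomes and the cell surface that macrophages make under lysosomal or lipid load, was among the loci with the largest changes. It ranged from 382 to 484 in sham cortex (median 445) and from 1554 to 4242 in TBI cortex (median 3094). The thalamic ranges were 407 to 601 in sham rats (median 489) and 3486 to 6255 in TBI rats (median 5300). The lowest injured rat of either region thus stood well above the highest sham rat, while TBI rats differed among themselves more in the cortex (CV 31.3%) than in the thalamus (CV 20.1%), a contrast that was not tested. The log2 effect was 2.68 (SE 0.18, adjusted p = 5.85e-07) in the cortex and 3.34 (SE 0.14, adjusted p = 3.54e-09) in the thalamus, rank 30 and rank 5 among all loci. Cd9, a tetraspanin of myeloid cells and of myelinating oligodendrocytes, ranged from 1855 to 2337 in sham cortex (median 2037) and from 3025 to 4057 in TBI cortex (median 3547). In the thalamus it ranged from 3764 to 5179 in sham rats (median 4446) and from 6763 to 8214 in TBI rats (median 7276). TBI and sham rats were separate within each region, but sham thalamus overlapped TBI cortex. Its log2 effects of 0.80 (SE 0.08, adjusted p = 7.99e-06) and 0.75 (SE 0.07, adjusted p = 5.33e-06) belong to the cortex and the thalamus.

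Among the secreted members, Spp1 encodes osteopontin, a matrix protein that binds integrins and Cd44. Sham cortex held 14.0 to 42.4 normalized counts of Spp1 (median 37.7) and TBI cortex 243 to 751 (median 527). Sham thalamus held 171 to 238 (median 207) and TBI thalamus 1046 to 3129 (median 1808). Its 4 groups did not overlap at all and stood in the order sham cortex, sham thalamus, TBI cortex and TBI thalamus. The log2 effect was 3.82 (SE 0.30, adjusted p = 2.02e-06) in the cortex, the largest of the 9 members there, and 3.11 (SE 0.21, adjusted p = 2.23e-07) in the thalamus. Lgals3, galectin-3, a lectin that gathers at damaged lysosomes and can also be secreted, ranged from 52.7 to 79.3 in sham cortex (median 60.6) and from 260 to 1093 in TBI cortex (median 612). In the thalamus it ranged from 146 to 254 in sham rats (median 176) and from 908 to 1438 in TBI rats (median 1096). TBI rats were higher without overlap in both regions, and the TBI cortex range spanned more than 4-fold from the lowest to the highest rat. Lgals3 rose by 3.29 (SE 0.26, adjusted p = 2.02e-06) in the cortex and 2.61 (SE 0.15, adjusted p = 3.62e-08) in the thalamus on the log2 scale.

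Igf1, a growth factor of microglia and some neurons, had the weakest calls of the list. It ranged from 367 to 499 in sham cortex (median 378) and from 398 to 754 in TBI cortex (median 510). In the thalamus it ranged from 669 to 1308 in sham rats (median 1067) and from 1113 to 1639 in TBI rats (median 1327). The groups overlapped in both regions, with 3 of 6 TBI rats above all sham rats in the cortex and 4 of 6 in the thalamus. The log2 effect of Igf1 was 0.39 (SE 0.14, adjusted p = 0.0414) in the cortex and 0.41 (SE 0.14, adjusted p = 0.0351) in the thalamus. Both calls were lost when single libraries were left out, with adjusted p up to 0.0915 without TBI cortex rat 22 and up to 0.0795 without TBI thalamus rat 63. Cst7, cystatin F, an inhibitor of cathepsins in immune cells and a frequent marker of disease-associated microglia in mice, was barely detected. Its sums over 6 libraries were 30 fragments in sham cortex, 37 in TBI cortex, 24 in sham thalamus and 15 in TBI thalamus. Single libraries held 0 to 11 fragments, and 9 of the 24 held 3 or fewer, the floor used here. A difference in Cst7 was not detectable at this depth in either region, and no fold is given where libraries are at the floor.

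**Figure D2:**
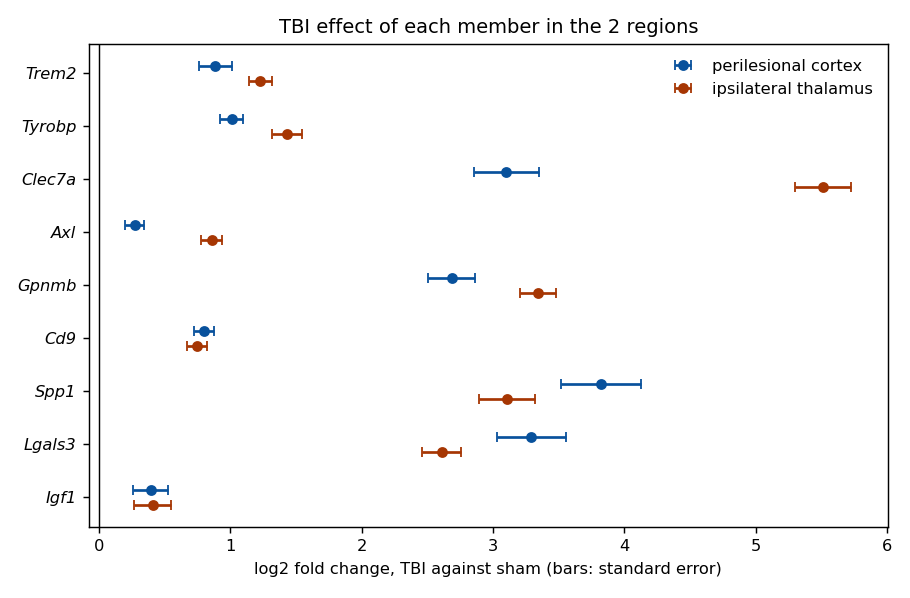
TBI effect of the 9 members tested as the log2 fold change of TBI against sham rats, with standard errors, in the perilesional cortex and the ipsilateral thalamus (6 rats a group). Clec7a moves from 3.10 to 5.51 between the regions and Axl from 0.27 to 0.86, while Spp1 and Lgals3 have the larger value in the cortex and Cd9 and Igf1 nearly the same value in both.

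Whether the TBI effect differed between the regions was asked with an interaction term in a limma fit of all 24 libraries. This fit left out the rat, although both regions came from the same rats. Of the 9 members 2 had a larger effect in the thalamus, Clec7a by 2.41 on the log2 scale (SE 0.34, adjusted p = 9.42e-05) and Axl by 0.58 (SE 0.11, adjusted p = 0.00159), and 2.72% of all loci were called in this direction. With the rat as a block these adjusted p were 0.00113 for Clec7a and 0.000879 for Axl. In the other direction limma called 0 of the 9, with 1 at an unadjusted p under 0.05, beside 4.54% of all loci called, and edgeR on the recovered fragments also called 0. Gpnmb (0.66, adjusted p = 0.101), Tyrobp (0.42, adjusted p = 0.0931) and Trem2 (0.34, adjusted p = 0.209) had positive differences that did not pass. Spp1 (-0.71, adjusted p = 0.305) and Lgals3 (-0.68, adjusted p = 0.22) had negative ones that did not pass, although Lgals3 passed without TBI cortex rat 63 (-0.93, adjusted p = 0.0252). Gpnmb passed without TBI cortex rat 24 (adjusted p = 0.0474) or TBI thalamus rat 52 (adjusted p = 0.0448). Of the 7 microglial reference genes 6 had a larger effect in the thalamus too, with Ptprc, the leukocyte antigen CD45, at 0.86 (adjusted p = 0.000519).

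Levels also differed by region in uninjured animals, in contrasts of the same fit without the rat. In sham rats 8 of the 9 members differed between thalamus and cortex, against 61.4% of all loci, so a difference of this kind is common among all genes. Spp1 was higher in sham thalamus by 2.67 (SE 0.28, adjusted p = 8.65e-09) on the log2 scale, Lgals3 by 1.57 (adjusted p = 1.94e-06), Igf1 by 1.30 (adjusted p = 2.76e-08) and Cd9 by 1.09 (adjusted p = 4.66e-12). Trem2 (0.37, adjusted p = 0.00646) and Tyrobp (0.34, adjusted p = 0.00865) were higher by less. Axl was lower in sham thalamus (-0.40, adjusted p = 6.69e-05), and Clec7a was lower as well (-0.63, adjusted p = 0.0266), a call that edgeR did not make (adjusted p = 0.0804) and that was lost without each of 5 single libraries (adjusted p up to 0.0665, without sham thalamus rat 55). Gpnmb did not pass (0.16, adjusted p = 0.432). In TBI rats all 9 were higher in the thalamus, against 32.7% of all loci. Clec7a stood 1.78 higher (SE 0.24, adjusted p = 5.54e-07) in TBI thalamus and Axl 0.18 higher (SE 0.08, adjusted p = 0.0419), so both had the opposite order of regions from sham rats. The call for Axl was lost with TMM scaling (adjusted p = 0.0681), with no filter on low values (adjusted p = 0.053), with edgeR (adjusted p = 0.0774) and without each of 8 single libraries, those of TBI cortex rats 24, 52, 56 and 63 and TBI thalamus rats 22, 24, 45 and 63 (adjusted p up to 0.119, without TBI thalamus rat 63).

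The 4 group means fell into 3 orders. Trem2, Tyrobp, Gpnmb, Spp1 and Lgals3 rose from sham cortex through sham thalamus and TBI cortex to TBI thalamus. For Cd9 and Igf1 both cortex groups stood below both thalamus groups. Clec7a and Axl were lowest in sham thalamus and highest in TBI thalamus. Neighbours in these orders overlapped as follows. The sham groups of the regions overlapped for Trem2, Tyrobp, Gpnmb and Clec7a, and the TBI groups for Gpnmb, Axl and Lgals3. Sham cortex and TBI cortex overlapped for Axl and Igf1, TBI cortex and sham thalamus for Cd9 and Igf1, and sham and TBI thalamus for Igf1. The oligodendrocyte markers, of which Cd9 can be one, were higher in sham thalamus for 8 of 8 loci tested, and the part of this in the level of Cd9 was not tested.

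To set the members against general microglial RNA, the mean log2 level of the 7 reference genes was subtracted from every locus of each library and the fit repeated. The reference mean rose by 0.66 in the cortex and by 1.21 in the thalamus. In the cortex 6 of the 9 members remained higher, against 1.6% of all loci on this scale. This count and that of the thalamus depend on which genes make up the reference, since Cd9 in the cortex and Tyrobp in the thalamus were also called with the reference list as first planned, which was shortened after the data were seen. Spp1 kept a relative log2 effect of 3.16 (SE 0.25, adjusted p = 1.9e-08), Lgals3 2.63 (adjusted p = 2.12e-08), Clec7a 2.44 (adjusted p = 2.45e-08) and Gpnmb 2.03 (adjusted p = 6.65e-09). Tyrobp (0.35, adjusted p = 0.000665) and Trem2 (0.23, adjusted p = 0.0484) kept less than 0.5. The call for Trem2 was lost with no filter on low values (adjusted p = 0.0607) and without each of 7 single libraries, those of sham rats 26, 32, 38 and 50 and of TBI rats 22, 24 and 56 (adjusted p up to 0.142, without sham cortex rat 26). Cd9 did not pass (0.14, adjusted p = 0.162), but did with the list as planned and with the homeostatic microglia genes as reference (0.51, adjusted p = 3.47e-05). Axl was lower than the reference (-0.39, adjusted p = 0.000298), as were 84.7% of all loci, a call that was lost with the homeostatic reference (-0.02, adjusted p = 0.819). Igf1 had a relative effect of -0.27 (adjusted p = 0.0906) and passed without TBI cortex rat 45 (-0.34, adjusted p = 0.0301).

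In the thalamus 4 of the 9 members stayed higher than the reference, against 0.643% of all loci. Clec7a led with 4.30 (SE 0.19, adjusted p = 2.64e-12), ahead of Gpnmb (2.13, adjusted p = 2.64e-10), Spp1 (1.90, adjusted p = 1.64e-09) and Lgals3 (1.40, adjusted p = 3.64e-09). Tyrobp did not pass (0.22, adjusted p = 0.0622), but did with the list as planned and without TBI thalamus rat 22 (adjusted p = 0.0485), TBI thalamus rat 45 (adjusted p = 0.0494) or sham thalamus rat 55 (adjusted p = 0.0437). Trem2 did not pass either (0.015, adjusted p = 0.887). Axl (-0.36, adjusted p = 0.00232), Cd9 (-0.47, adjusted p = 0.000129) and Igf1 (-0.80, adjusted p = 0.00014) were lower, as were 94.3% of all loci on this scale. These orders depend on the reference chosen. The mean of the 15 homeostatic genes rose by 0.30 in the cortex and 0.56 in the thalamus. It includes Siglech, which was nearly undetected (mean 0.247 over the 24 libraries), and Mef2c, which was called lower in both regions. With this mean as reference, 8 of 9 members were higher in TBI than in sham thalamus, beside 455 of all 15564 loci. Axl then turned to 0.30 (adjusted p = 0.00215) and Cd9 to 0.19 (adjusted p = 0.0421), Trem2 passed at 0.67 (adjusted p = 1.58e-06) and Tyrobp at 0.87 (adjusted p = 9.96e-07), and Igf1 was no longer called (-0.15, adjusted p = 0.377).

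**Figure D3:**
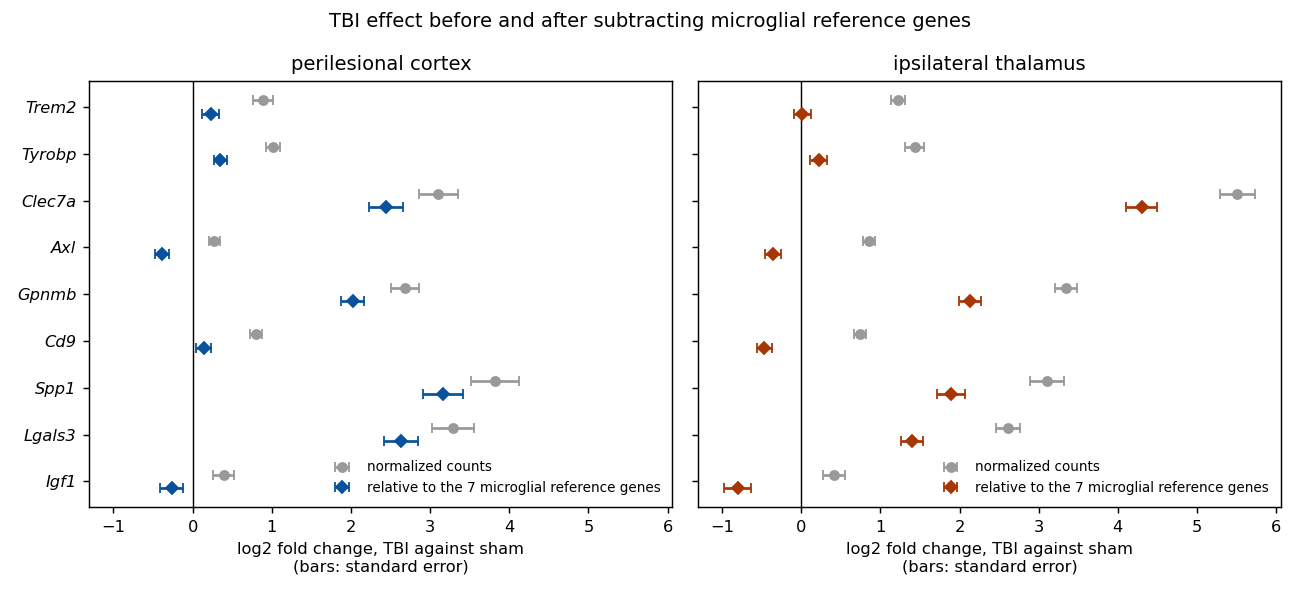
TBI effect of the 9 members in the perilesional cortex and the ipsilateral thalamus, as the log2 fold change of normalized counts (grey circles) and after subtracting the mean log2 level of the 7 microglial reference genes in each library (coloured diamonds), with standard errors. Clec7a, Gpnmb, Spp1 and Lgals3 stay above 1 on the relative scale in both regions, and Axl and Igf1 fall below 0.

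Subtracting the reference also changed which members differed between the regions, an alternative chosen after the data were seen. Clec7a kept a larger effect in the thalamus (1.86, SE 0.29, adjusted p = 3.07e-05), where 0.255% of all loci were called in that direction, and was the only member to do so in this fit. Axl no longer differed (0.03, adjusted p = 0.822). Spp1 (-1.27, adjusted p = 0.00228), Lgals3 (-1.23, adjusted p = 0.000559), Cd9 (-0.61, adjusted p = 0.000303) and Igf1 (-0.54, adjusted p = 0.0498) had a smaller relative effect in the thalamus, as did 72.8% of all loci.

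The injured rats differed among themselves, and their order was not the same in the regions. In the cortex rat 45 held the highest value among the 6 TBI rats for 5 of the 9 members and rat 24 for the other 4, while rat 63 held the lowest for 6. In the thalamus rat 63 held the highest value for 8 of the 9, and rat 56 the lowest for 3. For Clec7a, rat 63 thus had the lowest TBI cortex level (94.0) and the highest TBI thalamus level (783). Rat 45 had the highest Clec7a in TBI cortex (187) and the lowest in TBI thalamus (308). These ranks describe 6 rats and were not tested. Without rat 63, the log2 effect of Clec7a was 3.22 in the cortex and 5.37 in the thalamus, and without rat 45 it was 3.02 and 5.64.

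**Figure D4:**
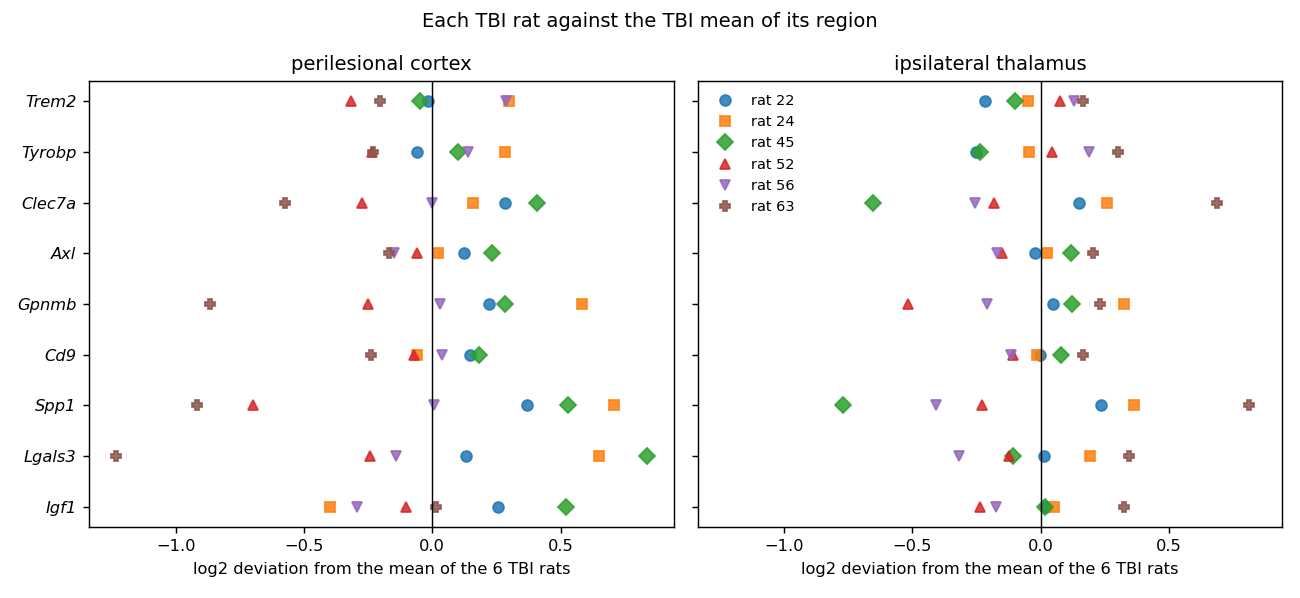
Deviation of each TBI rat from the mean of the 6 TBI rats of the region, as a log2 difference, for the 9 members tested in the perilesional cortex and the ipsilateral thalamus. Rat 63 lies lowest for 6 members in the cortex and highest for 8 in the thalamus, and the spread is widest for Spp1, Lgals3 and Gpnmb in the cortex and for Spp1 and Clec7a in the thalamus.

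Of the 9 members, Igf1 followed the others least. Over the 24 libraries the mean standardised level of the other members correlated with Igf1 at r = 0.567 and with Axl at r = 0.678, and with Tyrobp, the closest, at r = 0.973. After centring on the 4 group means these were -0.049 for Igf1, 0.724 for Axl and 0.56 for Tyrobp, and Lgals3 was highest at 0.807. The loci outside the list whose level followed the mean of the members most closely over the 24 libraries were Grn (r = 0.991), Tmem176b (0.986), Ncf1 (0.985), Ptpn6 (0.983), Ifi30 (0.982), Arl11 (0.982), Npc2 (0.981), Fermt3 (0.981), Ctsz (0.98) and Itgb2 (0.98). Grn encodes progranulin, a lysosomal growth factor precursor, and Npc2 and Ctsz are lysosomal proteins, while Ncf1 is an NADPH oxidase subunit and Itgb2 the beta chain of leukocyte integrins. Centred on the group means, the closest were Ncf1 (0.864), Gnb4 (0.848), Grn (0.829), Rdm1 (0.802) and S1pr3 (0.789). The points share rats and, before centring, the 4 groups, so these correlations are descriptions.

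Other genes of the programme moved less uniformly. Of 40 further disease-associated microglia genes 33 were tested. In the cortex 23 rose and 0 fell by limma (also 0 at an unadjusted p under 0.05 and by edgeR), 10 not being called, with a median log2 effect of 0.66 beside -0.01 for all loci. In the thalamus 25 rose and 1 fell, with a median of 0.73 beside -0.02. Ccl3, a chemokine, rose from 5.10 ± 1.73 to 23.6 ± 6.29 normalized counts in the cortex (adjusted p = 0.000101) and from 4.51 ± 4.35 to 39.0 ± 5.20 in the thalamus (adjusted p = 0.000121). Its sham means were a few normalized counts, so Ccl3 passed the filter on low values only through the TBI rats, and no fold is given. Cd68, a lysosomal membrane protein of phagocytes, rose from 77.4 ± 10.5 to 318 ± 95.2 in the cortex (1.98, adjusted p = 3.19e-06) and from 92.1 ± 14.9 to 641 ± 145 in the thalamus (2.77, adjusted p = 2.33e-08). Lilrb4, an inhibitory receptor, rose by 1.98 in the cortex (adjusted p = 0.00012), and Olr1, an oxidised lipoprotein receptor, by 2.93 in the thalamus (adjusted p = 1.12e-07). The gene that fell in the thalamus, named after its values were seen, was Bhlhe40, a transcription factor also made by neurons (-0.45, adjusted p = 0.00212). Lpl, also named after its values were seen, is often listed beside the members in mouse microglia and is expressed by neurons too. It had values of -0.08 (adjusted p = 0.54) and -0.12 (adjusted p = 0.874).

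The pathway below the receptors was covered by 20 genes of Trem2 and Clec7a signalling, 19 of them tested. In the cortex 10 rose and 0 fell by limma, with 9 not called (0 fell at an unadjusted p under 0.05 or by edgeR), and in the thalamus 16 rose and 2 fell, with medians of 0.32 and 0.73. Vav1, a guanine nucleotide exchange factor, rose by 0.94 (adjusted p = 7.05e-06) and 1.26 (adjusted p = 4.01e-07). Fgr, a Src family kinase, rose by 0.84 (adjusted p = 0.00165) and 1.51 (adjusted p = 3.43e-06). Ptpn6 (SHP-1), a phosphatase that restrains such signalling, rose by 0.84 in the cortex (adjusted p = 1.05e-05), and Lat2, an adaptor, by 1.44 in the thalamus (adjusted p = 2.33e-08). Several were named after their values were seen. Syk itself rose by 0.43 (adjusted p = 0.00315) in the cortex and 1.15 (adjusted p = 6.4e-07) in the thalamus. Inpp5d (SHIP1), a lipid phosphatase that opposes the pathway, had -0.10 (adjusted p = 0.191) in the cortex and 0.98 (adjusted p = 3.45e-06) in the thalamus, and its interaction passed (1.08, adjusted p = 7.78e-07). The falls in the thalamus were Prkcd (-0.82, adjusted p = 4.4e-05), a kinase that thalamic neurons also express, and Grb2 (-0.16, adjusted p = 0.0256), an adaptor of most cells.

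Ligands, co-receptors and relatives of the members made a list of 30 genes, 28 of them tested. In the cortex 14 rose and 2 fell, and in the thalamus 13 rose and 2 fell, with medians of 0.21 and 0.25. Of all cortical loci tested, 14.3% were called higher and 14.9% lower. For thalamic loci these shares were 14.5% and 20.9%. The 2 falls among 28 genes were thus a smaller share than that of all loci in either region. The hyaluronan and osteopontin receptor Cd44 rose by 2.08 in the cortex (adjusted p = 7.9e-07) and 1.80 in the thalamus (adjusted p = 2.15e-07), from 237 ± 23.5 to 1030 ± 253 and from 292 ± 43.5 to 1024 ± 174 normalized counts. Ctsc, the protease that cystatin F inhibits and that activates granule proteases, rose by 0.84 in the cortex (adjusted p = 0.000142), where Lgals1 (galectin-1) rose by 0.66 (adjusted p = 0.000742). In the thalamus Clec4a, a lectin receptor, rose by 1.45 (adjusted p = 0.000358) and Ctsh, a lysosomal protease, by 0.85 (adjusted p = 3.5e-06). The falls were Itgav (-0.31, adjusted p = 0.0061) and Irs1 (-0.20, adjusted p = 0.0186) in the cortex and Irs1 (-0.35, adjusted p = 0.00572) and Irs2 (-0.34, adjusted p = 0.00189) in the thalamus, named after their values were seen. Irs1 and Irs2 are docking proteins of the insulin and IGF1 receptors. The Axl ligand gene Gas6, also named after its values were seen, did not pass in either region (-0.01, adjusted p = 0.862, and -0.27, adjusted p = 0.17).

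Most homeostatic microglia genes rose too. Of 15 genes 14 were tested, and 10 rose and 1 fell in each region, with medians of 0.36 in the cortex and 0.68 in the thalamus. The purine receptor P2ry12 rose from 778 ± 89.8 to 1675 ± 311 in the thalamus (1.09, adjusted p = 8.49e-06). Cx3cr1, the fractalkine receptor, rose by 0.53 in the cortex (adjusted p = 1.85e-05), where Olfml3, a secreted matrix protein, rose by 0.98 (adjusted p = 3.13e-05). Slc2a5, a fructose transporter, rose by 0.52 (adjusted p = 0.00518) and 1.08 (adjusted p = 8.16e-06), and the receptor Tgfbr1 by 0.99 in the thalamus (adjusted p = 2.93e-05). The fall in both regions, named after its values were seen, was Mef2c, a transcription factor that neurons express as well (-0.28, adjusted p = 0.0197, and -0.41, adjusted p = 0.00401). Relative to the 7 reference genes, 1 of the 14 was higher and 7 were lower in the cortex, where 1.6% of all loci were higher and 84.7% lower. In the thalamus 0 were higher (also 0 at an unadjusted p under 0.05) and 11 lower by limma, where 0.643% of all loci were higher and 94.3% lower. The reference genes themselves rose for 6 of 7 in the cortex and 7 of 7 in the thalamus, with medians of 0.68 and 1.13 and with Spi1 (0.89, adjusted p = 0.00127, and 1.25, adjusted p = 4.75e-06) and Irf8 (0.88, adjusted p = 0.000181, and 1.47, adjusted p = 4.22e-07), factors of macrophage identity, among them.

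**Figure D5:**
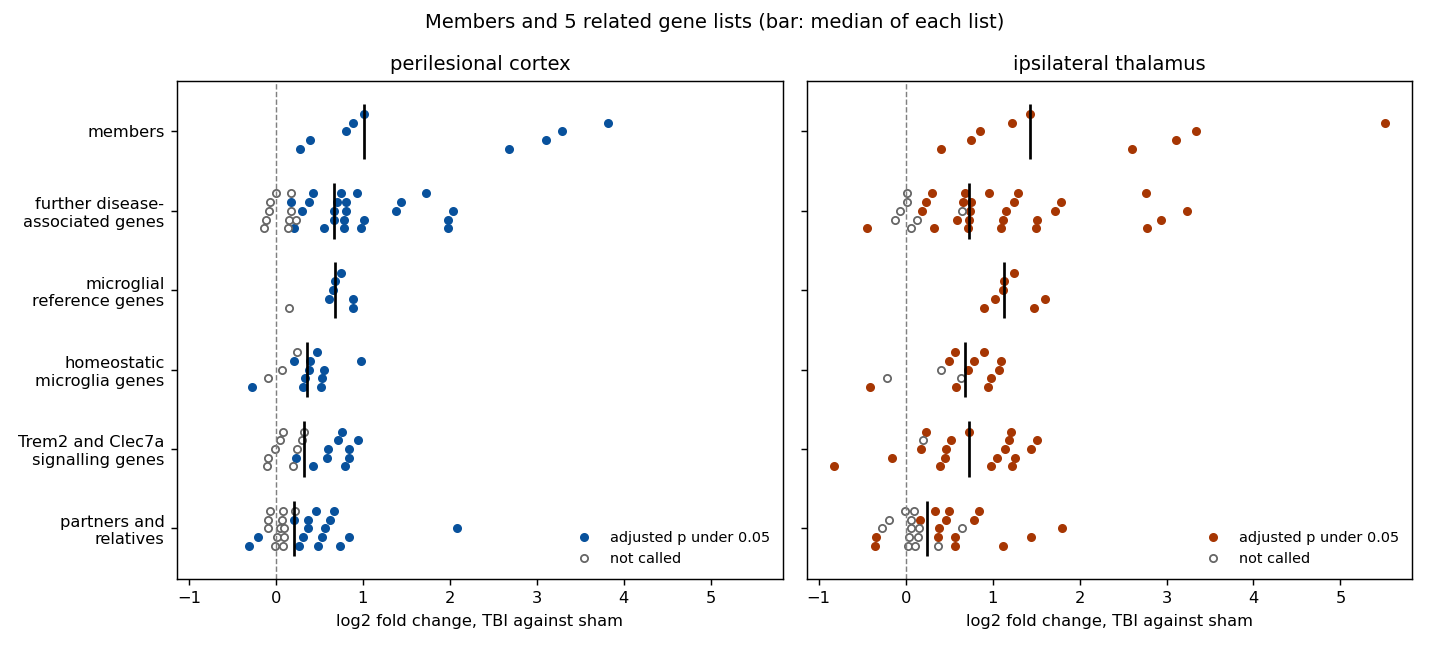
TBI effect of the members and of 5 related gene lists as the log2 fold change of TBI against sham rats in the perilesional cortex and the ipsilateral thalamus, 1 point per locus tested, filled where the adjusted p was under 0.05, with a bar at the median of each list. The medians of the members are 1.01 and 1.43, and 4 members stand beyond every locus of the other 5 lists in the cortex. In the thalamus only Clec7a and Gpnmb do so, while Spp1 and Lgals3 lie within the range of the further disease-associated genes.

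Markers of other cell types moved with injury beside the members. Neuron markers were lower for 12 of 15 loci in the cortex and 13 of 15 in the thalamus, among them the neurofilament gene Nefh (-0.91, adjusted p = 0.000126, and -1.43, adjusted p = 2.05e-06). Astrocyte markers were higher for 5 of 9 in each region and lower for 1 in the cortex, with Gfap at 2.26 in both (adjusted p = 4.85e-07 and 2.33e-08). Perivascular macrophage markers were higher for 3 of 6 in the cortex, where Pf4 rose by 0.81 (adjusted p = 0.00159). In the thalamus 1 of 6 was higher, near the 14.5% of all loci called higher there. The summed level of the perivascular macrophage markers ranged from 736 to 899 in sham cortex, 855 to 1642 in TBI cortex, 1023 to 1427 in sham thalamus and 936 to 2854 in TBI thalamus. Of this list Cbr2, named after its values were seen, was listed at 0 in every library of 3 groups and had a mean of 0.293 in TBI cortex. Of the monocyte and neutrophil markers 3 were tested and 1 rose in the cortex and 0 in the thalamus by limma, where edgeR and an unadjusted p under 0.05 also gave 0. Their sum ranged from 960 to 1238 in sham cortex, 1123 to 1374 in TBI cortex, 1502 to 1789 in sham thalamus and 1377 to 2016 in TBI thalamus, with the neutrophil gene Elane, also named after its values were seen, at 0 in both cortex groups and in TBI thalamus.

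Lymphocyte markers were mostly under the filter. Cd4, which rat microglia and macrophages also express, rose from 789 ± 69.9 to 1359 ± 112 in the cortex (0.79, adjusted p = 4.49e-06) and from 862 ± 124 to 2983 ± 606 in the thalamus (1.78, adjusted p = 1.97e-07). The T cell gene Cd8b stood at 20.7 ± 9.78 in TBI thalamus beside a sham mean of 0.165 (adjusted p = 2.04e-06). It passed the filter on low values only through the TBI rats, so this call depends on the rise itself. Of the 12 lymphocyte markers 3 were tested in the thalamus. Fibroblast and meningeal markers were higher for 6 of 7 in the cortex, with Col1a2 at 0.83 (adjusted p = 0.00264), and for 0 of 7 in the thalamus by limma, by edgeR and at an unadjusted p under 0.05. Their summed level ranged from 58626 to 80685 in sham cortex and from 80483 to 209651 in TBI cortex (median 101225), the highest being rat 45, which also had the highest perivascular macrophage and choroid plexus (41309) sums of TBI cortex. In the thalamus it ranged from 13350 to 47197 in sham rats and from 15077 to 153326 in TBI rats (median 16904), rat 45 again being highest. Oligodendrocyte markers were higher for 3 of 8 in the cortex and 1 of 8 in the thalamus, and endothelial markers for 2 and 3 of 7 (2 in each region by edgeR). Oligodendrocyte precursor markers were higher for 4 of 6 in the cortex and 1 of 6 in the thalamus, with Gpr17 at 0.26 in the cortex (adjusted p = 0.00552). The thalamic 1 of 8 and 1 of 6 were near the 14.5% of all loci called higher there, beside 14.3% in the cortex. Choroid plexus markers were called for 0 of 7 in both regions by limma and edgeR, with 1 at an unadjusted p under 0.05 in the cortex. The TBI thalamus library of rat 45 held a sum of 334013 beside a group median of 11245, and the sham thalamus library of rat 50 held 133973. The same TBI thalamus library had the lowest Clec7a and Spp1 of its group. Without it the log2 effect in the thalamus was 5.64 for Clec7a and 3.26 for Spp1, and Igf1 was no longer called (0.41, adjusted p = 0.0515), while the other 8 members stayed called. The part of the other cell types in the effects of the members was not tested.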

How the data were processed

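For 24 tissue samples the authors sequenced stranded libraries of polyadenylated RNA, aligned the reads with TopHat2 2.0.11 and Bowtie2 2.2.2, assembled loci with Cufflinks 2.2.1 against the Rnor 5.0 annotation, and deposited 1 table of normalized signal per locus, that is, fragment counts divided by a size factor. The low deposited signal values are whole multiples of 1 step, and dividing by it gave whole fragments (within 0.1) for at least 99.969% of positive values in each library and 30568926 to 54608921 fragments per library. Depth limits Cst7 most, and the floor of 3 fragments covers counting error only. Groups came from the labels, and each library of a group is a separate rat. The part of the table without a gene name (15693 of 42334 loci, 1.90% to 2.23% of a library) was left out. Some list genes had 2 loci, among them Inpp5d, Prkcd, Spi1 and Itgav. For these the locus with the higher mean over the 24 libraries was used, and the other is not reported. Columns of the authors' own comparisons were not used.

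TBI and sham rats were compared within each region with limma 3.58.1 in R 4.3.3 (mean trend) on log2(value + 1), keeping loci whose mean was at least 10, with Benjamini-Hochberg adjustment over all loci and a threshold of 0.05. This fold scale understates the change of low genes. Region contrasts and the interaction came from 1 fit of all 24 libraries without the rat. The study's own Cuffdiff test cannot be run on the table. The numbers in the titles tie the cortex and thalamus of a rat together. Centred on group means, the paired libraries had a median correlation of 0.187 (0.00393 to 0.569, 10 of 12 rats over 0.1), against -0.033 between rats. Alternatives were TMM and upper quartile scaling, no filter, a minimum mean of 50, a pseudocount of 0.1 or 5, leaving out each library, all libraries in 1 fit, the rat as a block, another reference list and, added after the data were seen, the reference subtracted from the interaction and edgeR 4.0.16 on the recovered fragments of 23 libraries (the step of sham thalamus rat 55 is too near 1 to be checked). 1 planned gene of the reference list is not reported here and was left out of the reference after the data were seen, which ended the relative calls of Cd9 in the cortex and Tyrobp in the thalamus. Members, lists and tests were chosen with earlier results of these data known. Named genes are all members and, per list and region, up to 3 called genes with the largest change and no overlap between groups, with the 10 and 5 loci most like the members. Genes outside this rule were named after their values were seen, as stated beside them. Means are followed by the SD over 6 rats. Promoters were read from RefSeq (GRCr8). The scripts were tested on simulated data.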

Additional observations from a re-analysis of the deposited data

Results flagged for a closer look

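Over the 40 groups of 6 values (10 members in 4 groups), 2 held a library whose gap to the nearest other value was large for the range of the group, by Dixon's criterion at the 95% level, which chance alone would flag in about 1 group of 20. The sham cortex library of rat 50 held the lowest Clec7a, 6.70 normalized counts with the next library at 16.0. The TBI thalamus library of rat 45 held the highest Cst7, 7.11 with the next library at 2.06, which is 7 fragments. The TBI effect of Clec7a was larger in the thalamus than in the cortex by 2.41 on the log2 scale (adjusted p = 9.42e-05, limma interaction), and that of Axl by 0.58 (adjusted p = 0.00159). The regional difference of Clec7a was also present without the rat 50 sham cortex library, since the interaction stayed between 2.27 and 2.63 when any 1 of the 24 libraries was left out (adjusted p at most 0.000293).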

How the results depend on the processing

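Of 375 recomputed counts of members and list genes 373 stayed within 1.5 times the reported count. The number of members higher than the reference genes in TBI thalamus went from 4 to 8 with the homeostatic genes as reference. The number of all loci went from 100 to 455. The number of members with a larger effect in the thalamus went from 2 to 1 with the reference genes subtracted, and that of all loci from 427 to 40. Of 1575 recomputed values of single members 1501 kept direction and call, 44 lost the call, 13 gained it and 17 changed sign. The changes of sign were all in small or relative values. The Igf1 interaction lay between -0.094 and 0.122 when single libraries were left out, at -0.001 with edgeR and at -0.54 with the reference subtracted, where Trem2 went to -0.21 and Tyrobp to -0.13. Trem2 relative to the reference in the thalamus lay between -0.038 and 0.044 when single libraries were left out. With the homeostatic reference, Igf1 went to 0.10 in the cortex, and Axl to 0.30 and Cd9 to 0.19 in the thalamus. In the cortex Igf1 lost its call without each of 9 single libraries and with no filter on low values (adjusted p = 0.0552), and in the thalamus without each of 6. With the rat as a replicate block the counts did not change (2, 8 and 9 members for the interaction, the sham regions and the TBI regions) and no member gained or lost its call, the Clec7a interaction having an adjusted p of 0.00113. Scaling moved the split of all thalamic calls from 59.0% lower to 45.7% (TMM) and 47.7% (upper quartile). With edgeR, which changes the test and the libraries as well, it was 48.4%. Under these 3 no TBI effect of a member changed sign. Cst7 was tested only with no filter on low values, where it was not called in the cortex (adjusted p = 0.715) or the thalamus (adjusted p = 0.514). Relative to the reference it was called lower in the thalamus (adjusted p = 0.00239), as were 18829 of the 20962 loci in that fit. In TBI thalamus 5 libraries held 3 or fewer fragments of Cst7, so this call is not read as a change of Cst7.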
